A study of Homo sapiens with 24 samples.

Results

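Solute carriers are membrane proteins that move ions, sugars, amino acids, nucleotides, vitamins, metals and metabolites across the plasma membrane and the membranes of mitochondria, lysosomes and the Golgi. The renal tubule depends on them, because the proximal tubule reclaims glucose, amino acids, phosphate and organic acids from the filtrate through carriers on its luminal side and passes them to the blood through others. Clear cell renal cell carcinoma (ccRCC) is held to arise from this epithelium, and PAX8 is a transcription factor of the renal lineage that these tumours keep. Loss of VHL stabilises hypoxia-inducible factor, under which the glucose carrier SLC2A1 and the lactate carrier SLC16A3 are well-known targets.

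The genes described here are the expressed solute carrier genes. They are the 207 genes, of 394 whose symbol begins with SLC and a digit and of 26475 genes in the table, that were selected on a mean expected count of at least 50 over the 24 libraries. The members just inside this limit were SLC26A10 with a mean count of 51.1, SLC9A9 with 52.2 and SLC25A53 with 64.6, and the genes just outside it were SLC43A1 with 47.5, SLC4A10 with 47.2 and SLC9A4 with 45.3. Of the members, 181 reached the limit in the mean of each line, 8 reached it only in the 786-O derivative and 18 only in OS-LM1. Similarly, 7 reached it only in the sgNTC18 libraries and 5 only in the shPAX8 libraries. In these smaller sets the mean counts of the groups concerned lay on either side of the limit. Those that reached it only in the shPAX8 libraries were SLC1A3, SLC2A12, SLC40A1, SLC44A5 and SLC47A1, and those only in the sgNTC18 libraries SLC15A3, SLC23A1, SLC25A53, SLC26A10, SLC2A2, SLC35F3 and SLC9A9. This selection, made on counts not scaled to library totals, favoured a change in that direction without fixing it. SLC26A10 and SLC9A9 met the limits of the test of hairpins against sgNTC18 below in neither line. The values of these members are given below as a description and not as a test. By symbol, 9 members were named after a carrier without being one, such as SLC9A3R1 (a PDZ scaffold) and the noncoding transcript SLC2A1-AS1, and these were kept as a class of their own.

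The libraries were bulk RNA-seq of 2 human ccRCC lines with mutant VHL, both selected for metastasis. The first was derived from 786-O and is called the 786-O derivative here (its label carries the suffix M1A, as the plots show, and it is the only derivative of 786-O among these libraries), and OS-LM1 was derived from OS-RC2. Each line carried the non-targeting guide sgNTC18 or 1 of 2 short hairpin RNAs against PAX8, shPAX8-1 or shPAX8-2, with 4 libraries in each of the 6 groups, all grown in RPMI with serum. The labels do not say whether the libraries of a group were separate cultures, so that p-values measure the spread between these libraries, which may be technical. Each line is a single derivative, the shRNA vectors were doxycycline-inducible and the only control in these libraries is a guide rather than a hairpin, so depletion of PAX8 and the kind of construct cannot be told apart. The guide strands, shown because the hairpins are the treatment and differ in the seed (bases 2 to 8, in capitals), were as follows.

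shPAX8-1: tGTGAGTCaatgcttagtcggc

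shPAX8-2: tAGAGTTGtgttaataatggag

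Library totals ran from 11634419 to 52059375 expected counts. In the 786-O derivative, PAX8 was at 291, 395, 363 and 319 CPM (counts scaled to a common library total) with sgNTC18, at 22.6, 21.8, 15.1 and 14.8 with shPAX8-1, and at 40.7, 44.9, 42 and 39.6 with shPAX8-2. In OS-LM1 it was at 265, 280, 249 and 256 CPM with sgNTC18 and between 60.5 and 98.5 with the hairpins, so every library bore out its label. The replicates of the 786-O derivative with shPAX8-1 fell into 2 pairs, with 1 and 2 apart from 3 and 4, and values without either pair are given where they change a result. Of the markers of other cell types, COL1A2, PECAM1, CDH5 and PTPRC stayed under 1 CPM in every library and CD14 did not pass 3.6 CPM, although its mean was higher with shPAX8-1 and shPAX8-2 in the 786-O derivative (0.262, then 1.74 and 1.06 CPM) and in OS-LM1 (0.365, then 3.27 and 1.94). PDGFRB averaged 608 CPM in the 786-O derivative with sgNTC18, 298 with shPAX8-1 and 771 with shPAX8-2, and COL1A1 in OS-LM1 had a mean of 16.4 CPM with sgNTC18, 102 with shPAX8-1 and 167 with shPAX8-2. The sum of this list, most of it from these 2 genes, lay at 533 to 729 CPM with sgNTC18, 196 to 419 with shPAX8-1 and 655 to 874 with shPAX8-2 in the 786-O derivative, and at 14.8 to 20.5, 93 to 115 and 102 to 212 CPM in OS-LM1. Among ccRCC and epithelial markers, VIM was at no less than 3620 CPM in any library. CA9, a hypoxia marker, stayed under 1 CPM in the means of the 786-O derivative and averaged 6.47, 42.2 and 29.7 CPM in OS-LM1, where NDUFA4L2 averaged 0.571, 23.8 and 26.7. CDH6 averaged 239, 32.3 and 30.3 CPM in the 786-O derivative and 320, 45.7 and 45.6 in OS-LM1, and KRT8 243, 44.5 and 66 against 239, 248 and 288. Proximal tubule markers were unequal. LRP2 did not pass 0.0979 CPM in any library and CUBN lay between 2.5 and 7.1, whereas GGT1 averaged 199, 86.7 and 142 CPM in the 786-O derivative and 124, 47.8 and 72.2 in OS-LM1, and ANPEP 27, 13 and 21.3 against 26.7, 184 and 147. The part of these markers in the results below was not tested.

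On the length-scaled unit of TPM (counts scaled by transcript length and then to a common total), the mitochondrial phosphate carrier SLC25A3 had the highest mean over all libraries at 661.92, followed by the glucose carrier SLC2A1 at 548.77, the ADP/ATP carriers SLC25A6 at 304.19 and SLC25A5 at 238.77, and the large neutral amino acid carrier SLC7A5 at 213.49. Among the other classes, the highest TPM belonged to SLC43A3, a purine nucleobase carrier, at 151.77 for vitamins and nucleosides, to SLC16A3 at 118.82 for organic ions, to the zinc importer SLC39A6 at 97.46 for metals, to the sulphonucleotide carrier SLC35B2 at 83.72 for nucleotide sugars, to the phosphate carrier SLC20A1 at 70.96 for inorganic ions and to the choline carrier relative SLC44A2 at 56.43 for choline, lipids and heme. The amino acid exchangers SLC1A5 at 149.55 and SLC3A2 at 112.59, the latter the heavy chain that partners SLC7A5, were close behind. The 37 members of the SLC25 family, taken here as the mitochondrial class although SLC25A17 is a carrier of peroxisomes and the mitochondrial exchanger SLC8B1 was counted with inorganic ions, carried the largest summed TPM of any class in every group.

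In the 786-O derivative this mitochondrial sum was lower in every hairpin library. It lay between 2299 and 2374 TPM with sgNTC18, between 1495 and 1613 with shPAX8-1 and between 1397 and 1511 with shPAX8-2, so the groups did not overlap. The fall was not particular to this class. The inorganic ion sum lay there at 455 to 526, 306 to 364 and 365 to 396 TPM, and the nucleotide sugar sum at 551 to 595, 366 to 406 and 433 to 490. The sum over all members was also lower, at 7822 to 8477, 5912 to 7063 and 6824 to 7562 TPM. The metal sum was higher with shPAX8-1 (938 to 999 TPM, beside 858 to 898) and overlapped with shPAX8-2 (881 to 936). In OS-LM1 the mitochondrial sums did overlap, at 2091 to 2417, 1984 to 2284 and 1983 to 2061 TPM. The single carriers did not move alike. SLC25A5 averaged 420 TPM with sgNTC18, 207 with shPAX8-1 and 147 with shPAX8-2 in the 786-O derivative, and 459, 96.8 and 103 TPM in OS-LM1. SLC25A3 averaged 546, 444 and 343 TPM in the 786-O derivative but 723, 1030 and 884 TPM in OS-LM1, where the mean was higher with each hairpin, although SLC25A3 was not called in either line (-0.35 and 0.40 on the log2 scale).

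For sugars, the 786-O derivative sums depended on the hairpin, at 911 to 986 TPM with sgNTC18, 553 to 804 with shPAX8-1 and 1044 to 1249 with shPAX8-2. This ordering followed SLC2A1, which averaged 714, 413 and 892 TPM. Vitamin and nucleoside carriers in the 786-O derivative were at 437 to 504 TPM with sgNTC18, 217 to 332 with shPAX8-1 and 415 to 447 with shPAX8-2. In OS-LM1 the organic ion sum was at 357 to 425 TPM with sgNTC18, 432 to 514 with shPAX8-1 and 454 to 535 with shPAX8-2. This sum includes SLC47A1, selected through the hairpin libraries, at 0.11 to 0.18 TPM with sgNTC18 and 14.2 to 15.8 with the hairpins. It also includes SLC22A3, at 5.98 to 8.26 TPM with sgNTC18 and 66.5 to 97.8 with the hairpins. The separation of the sums therefore rests in part on a selected member and is a description.

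**Figure D1:**
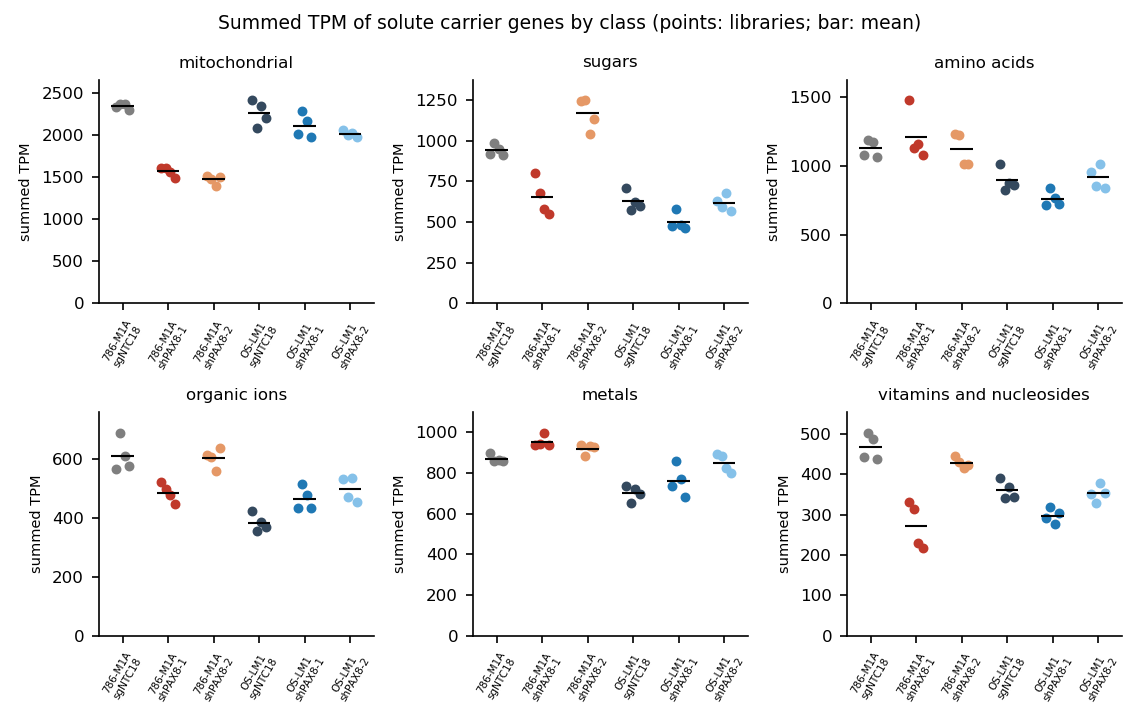
Summed TPM of the member genes of 6 transported classes (vertical axis, from 0) in the 24 libraries, by line and construct (horizontal axis). Points are libraries and bars the mean of 4; the mitochondrial sum of the 786-O derivative lies between 2299 and 2374 TPM with sgNTC18 and no higher than 1613 TPM with either hairpin.

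To find which carriers changed when PAX8 was depleted, the 8 hairpin libraries of a line were compared with its 4 sgNTC18 libraries by edgeR's quasi-likelihood test, and a gene was called at a Benjamini-Hochberg adjusted p under 0.05 and an absolute log2 fold change over 0.58. These are changes in relative level: fewer transcripts of a carrier and a shift in total RNA per cell cannot be told apart. In the 786-O derivative, 197 members passed the filter on low counts and were tested. Of these, 45 were higher, against 27% of all genes tested, and 54 were lower, against 25.9%. In OS-LM1, 203 members were tested, with 50 higher against 24.2% of all genes and 52 lower against 26.4%. Without the 12 members that reached the count limit with 1 kind of construct alone, 43 were higher and 50 lower in the 786-O derivative and 46 higher and 48 lower in OS-LM1. The members were thus called at close to the rate of all genes, and their median log2 fold change was -0.064 in the 786-O derivative and 0.104 in OS-LM1, beside 0.035 and -0.014 over all genes tested. Fold changes fell with GC content over all genes, with a Spearman correlation across genes of -0.254 in the 786-O derivative and -0.305 in OS-LM1. With the GC trend removed, 49 members were higher and 48 lower in the 786-O derivative, and 52 higher and 40 lower in OS-LM1.

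Of the 193 members tested in both lines, 23 were higher in both, 24 were lower in both, 3 were higher in the 786-O derivative and lower in OS-LM1, and 2 the reverse. A further 45 were called in the 786-O derivative only, 42 in OS-LM1 only and 54 in neither. The shares of these patterns over all genes, and of those by single hairpin below, were not computed. The counts therefore describe the members and do not set them apart from other genes. Taking each hairpin alone, 12 members were higher with each construct in each line. Among them were SLC16A4, SLC16A7, SLC17A5, SLC19A2, SLC25A37, SLC2A12, SLC35A5, SLC38A2, SLC38A6, SLC44A1 and SLC46A3. The 15 members lower with each construct in each line were SLC12A9, SLC19A1, SLC25A10, SLC25A11, SLC25A29, SLC25A39, SLC25A4, SLC25A5, SLC25A53, SLC27A4, SLC2A4RG, SLC35F3, SLC37A4, SLC39A3 and SLC4A5, of which SLC2A4RG is a transcriptional regulator and not a carrier. Of these lists, SLC2A12, SLC25A53 and SLC35F3 are among the members selected through 1 kind of construct. With the GC trend removed, SLC25A11 was called in neither line, SLC39A3 and SLC44A1 were not called in the 786-O derivative, and SLC2A4RG, SLC35A5 and SLC38A6 were not called in OS-LM1.

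**Figure D2:**
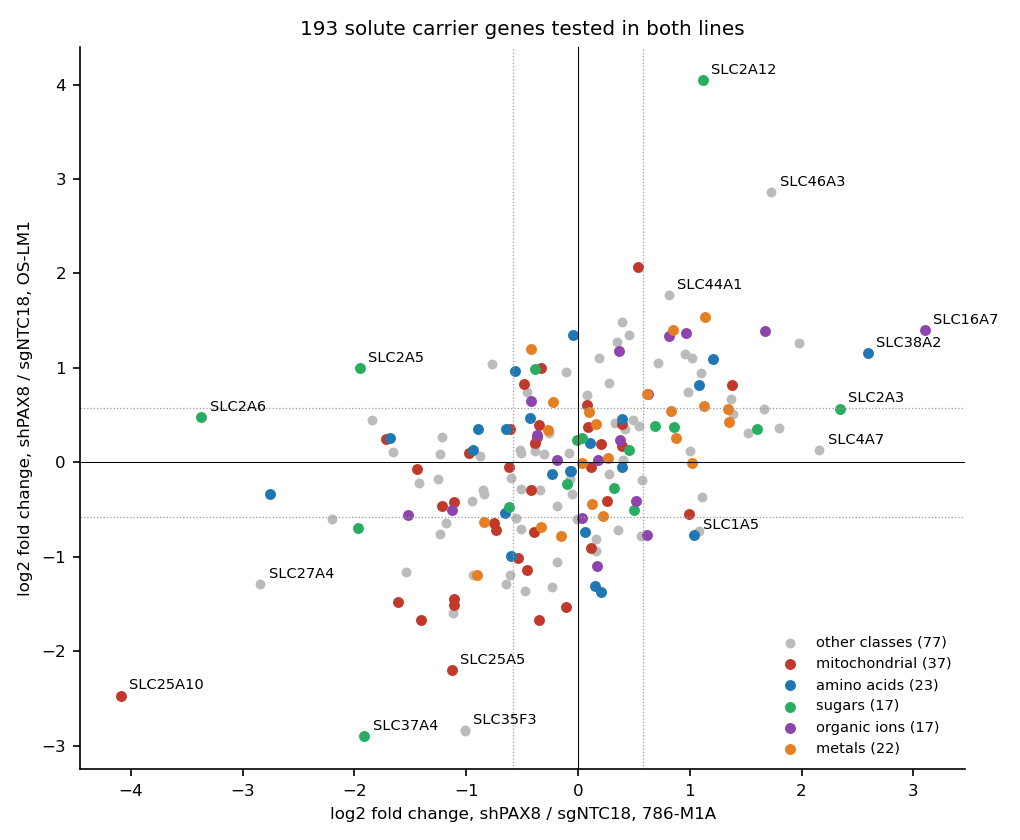
Log2 fold change of shPAX8 against sgNTC18 in the 786-O derivative (horizontal) and OS-LM1 (vertical) for the 193 members tested in both lines, coloured by transported class; dotted lines mark 0.58. SLC25A10 lies farthest left at -4.09 and -2.47, and SLC16A7 farthest right at 3.10 and 1.40.

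The mitochondrial class feeds substrates and nucleotides to the matrix. Of its 37 members, 15 were lower in the 786-O derivative (40.5%, beside 25.9% of all genes) and 2 higher (5.41%, beside 27%), with a median of -0.42. In OS-LM1, 14 were lower (37.8%, beside 26.4%) and 5 higher (13.5%, beside 24.2%), with a median of -0.29. The peroxisomal SLC25A17, at -0.62 in the 786-O derivative, is 1 of the members counted as lower there. SLC25A53, selected through the sgNTC18 libraries, is counted as lower in both lines. The dicarboxylate carrier SLC25A10, which exchanges malate and succinate for phosphate, fell the most of all members in the 786-O derivative. It was at 33.9, 46.6, 44.4 and 40 CPM with sgNTC18, at 1.5, 1.68, 0.837 and 0.883 with shPAX8-1 and at 3.58, 4.04, 3.92 and 6.13 with shPAX8-2. In OS-LM1 it was at 35.4, 30.1, 33.2 and 25.7 CPM with sgNTC18, at 4.94, 4.44, 3.57 and 5.64 with shPAX8-1 and at 6.49, 5.25, 8.3 and 6.63 with shPAX8-2. In neither line did a hairpin library reach the lowest control. The log2 fold change of SLC25A10 was -4.09 ± 0.17 (SE) in the 786-O derivative and -2.47 ± 0.12 in OS-LM1, with adjusted p of 4.4e-11 and 5.1e-13 in edgeR's test.

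The ADP/ATP carrier SLC25A5 fell in both lines and more so in OS-LM1. With sgNTC18 it stood at 306, 294, 318 and 286 CPM in the 786-O derivative and at 378, 313, 380 and 335 CPM in OS-LM1. With the hairpins it lay between 101 and 164 CPM in the 786-O derivative and between 66.2 and 86.5 CPM in OS-LM1, clear of the controls in each line. The fold changes of SLC25A5 were -1.13 ± 0.07 and -2.20 ± 0.07 on the log2 scale, and the difference between lines was -1.05 ± 0.11 (adjusted p = 3.9e-09 in edgeR's test). Reads of SLC25A5 may be shared with its processed pseudogenes, and RSEM assigns such reads by estimate. The related SLC25A4 fell by 1.61 in the 786-O derivative and by 1.48 in OS-LM1 on the log2 scale, while SLC25A6 was at -0.38 and 0.20 and was not called in either line. SLC25A39, a carrier needed for mitochondrial glutathione, fell by 1.11 and 1.45, and the citrate carrier SLC25A1 by 0.73 and 0.72, although neither call of SLC25A1 held with the GC trend removed (-0.20 and -0.23), nor did that in the 786-O derivative with shPAX8-2 alone (-0.54). The mitochondrial iron importer SLC25A37 went the other way, from a mean of 33.1 CPM to 79.1 with shPAX8-1 and 88.5 with shPAX8-2 in the 786-O derivative, and from 18.5 to 33.6 and 31.7 CPM in OS-LM1, with log2 fold changes of 1.38 ± 0.15 and 0.82 ± 0.12.

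Amino acid carriers split between directions, with 5 higher (20.8%, beside 27% of all genes) and 7 lower (29.2%, beside 25.9%) of 24 tested in the 786-O derivative. For OS-LM1, 5 were higher (20.8%, beside 24.2%) and 6 lower (25%, beside 26.4%) of 24. Of those called in the 786-O derivative, SLC1A3 (higher) was selected through the hairpin libraries and SLC15A3 (lower) through the sgNTC18 libraries. SLC38A2, a sodium-coupled carrier of small neutral amino acids, was at 89.1, 62.4, 66.5 and 73.6 CPM with sgNTC18 in the 786-O derivative, at 472, 397, 634 and 639 with shPAX8-1 and at 346, 350, 366 and 295 with shPAX8-2. In OS-LM1 it was at 80.4, 77.6, 76.9 and 84.9 CPM with sgNTC18, at 222, 192, 242 and 211 with shPAX8-1 and at 145, 170, 134 and 140 with shPAX8-2. Every hairpin library was above every control in both lines. SLC38A2 rose by 2.59 ± 0.15 in the 786-O derivative and by 1.16 ± 0.09 in OS-LM1 on the log2 scale, with adjusted p of 1.3e-09 and 3.3e-10, and by less in OS-LM1 (difference -1.39 ± 0.16, adjusted p = 3.6e-08 in edgeR's test).

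The cystine/glutamate exchanger SLC7A11 rose by 1.21 ± 0.18 in the 786-O derivative, but with shPAX8-2 alone the value there was 0.21 and was not called. In OS-LM1 it rose by 1.09 ± 0.11, from 37.6 to 43.3 CPM with sgNTC18 to 57 to 112 CPM with the hairpins, without overlap. Its heavy chain SLC3A2 fell by 0.99 in OS-LM1, from a mean of 131 CPM to 61.4 and 71.1. Within the 786-O derivative the value of SLC3A2 was -0.60, and the call ended without sgNTC18 replicate 2 (-0.55), without shPAX8-1 replicate 2 (-0.56), without shPAX8-2 replicate 3 (-0.56), with shPAX8-1 alone (-0.51) or with the GC trend removed (-0.36). SLC7A5 was not called in either line, at -0.23 ± 0.15 and -0.12 ± 0.12. The glutamine carrier SLC1A5 moved in opposite directions, by 1.04 ± 0.14 in the 786-O derivative and by -0.77 ± 0.11 in OS-LM1, and the difference of -1.77 ± 0.19 passed the test (adjusted p = 1.4e-08, edgeR). With the GC trend removed, the OS-LM1 value of SLC1A5 was -0.30 and was not called. SLC1A3, a glutamate carrier that reached the count limit through the hairpin libraries of the 786-O derivative, had a mean there of 1.02 CPM with sgNTC18, 19.1 with shPAX8-1 and 8.41 with shPAX8-2, and had at most 0.114 CPM in any OS-LM1 library.

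Of the sugar carriers, 5 were higher (27.8%, beside 27% of all genes) and 5 lower (27.8%, beside 25.9%) of 18 tested in the 786-O derivative. For OS-LM1, 3 were higher (16.7%, beside 24.2%) and 3 lower (16.7%, beside 26.4%) of 18. Of these, SLC2A12 (higher in both lines) was selected through the hairpin libraries and SLC2A2 (lower in OS-LM1) through the sgNTC18 libraries. SLC37A4, which carries glucose 6-phosphate into the endoplasmic reticulum for gluconeogenesis, fell in both lines. It was at 39.8, 50.4, 47.4 and 45.1 CPM with sgNTC18 and between 6.79 and 16.4 CPM with the hairpins in the 786-O derivative. In OS-LM1 it was at 43.6, 40.1, 38.6 and 38.2 CPM with sgNTC18 and between 4.12 and 7.37 CPM with the hairpins. The groups were far apart, with log2 fold changes for SLC37A4 of -1.91 ± 0.13 and -2.90 ± 0.09 and adjusted p of 5.1e-09 and 6.1e-16 in edgeR's test.

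The glucose carriers of the GLUT family differed from each other. SLC2A6 was at 36.8, 52.1, 43 and 38.4 CPM with sgNTC18 in the 786-O derivative, at 4.13, 3.46, 1.73 and 1.93 with shPAX8-1 and at 4.76, 5.31, 5.06 and 7.45 with shPAX8-2. In OS-LM1 it overlapped across the groups, with 10.6 to 15.6 CPM with sgNTC18, 13.9 to 18.3 with shPAX8-1 and 13.5 to 30.3 with shPAX8-2. SLC2A6 fell by 3.37 ± 0.18 on the log2 scale in the 786-O derivative and was at 0.48 ± 0.17 in OS-LM1, a difference of 3.87 ± 0.28 (adjusted p = 8.1e-12, edgeR). SLC2A3 went up in the 786-O derivative, from 38.4 to 41.6 CPM with sgNTC18 to 156 to 242 CPM with the hairpins, a log2 change of 2.34 ± 0.10, and was at 0.57 in OS-LM1, just short of the fold limit. SLC2A3 has a near-identical relative in SLC2A14, with which reads may be shared.

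SLC2A12, another member selected through the hairpin libraries, had means of 1.38, 3.25 and 2.66 CPM in the 786-O derivative and of 0.482, 11.1 and 5.86 in OS-LM1 with sgNTC18, shPAX8-1 and shPAX8-2. The fructose carrier SLC2A5 fell by 1.95 ± 0.21 in the 786-O derivative, where it was at 2.71 to 3.95 CPM with sgNTC18 and at 0.418 to 1.49 with the hairpins. In OS-LM1 it rose by 1.00 ± 0.16, from 2.32 to 4.03 CPM to 4.45 to 8.39. Neither line showed overlap, and the difference was 2.98 ± 0.26, although SLC2A5 reached the count limit in OS-LM1 alone. SLC2A1 itself was not called in either line, at -0.10 ± 0.11 and -0.23 ± 0.08.

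Of the organic ion carriers, 7 were higher (36.8%, beside 27% of all genes) and 2 lower (10.5%, beside 25.9%) of 19 tested in the 786-O derivative. In OS-LM1, 10 were higher (50%, beside 24.2%), SLC47A1 among them, and 3 lower (15%, beside 26.4%) of 20. The monocarboxylate carrier SLC16A7 was at 1.52, 1.55, 0.784 and 1.84 CPM with sgNTC18 in the 786-O derivative, at 11.3, 10.3, 13.7 and 13.7 with shPAX8-1 and at 12.5, 11.8, 11.9 and 8.64 with shPAX8-2. In OS-LM1 it was higher from the start, at 19.5, 20.8, 24.6 and 20.8 CPM, and stood at 41.3 to 49.4 with shPAX8-1 and 54.5 to 90.7 with shPAX8-2. There was no overlap in either line, and SLC16A7 rose by 3.10 ± 0.21 and 1.40 ± 0.12 on the log2 scale (adjusted p of 5.9e-09 and 4.1e-09, edgeR). The lactate exporter SLC16A3 fell by 1.13 ± 0.17 in the 786-O derivative, but with shPAX8-2 alone it was at -0.43 and not called, and in OS-LM1 the value was -0.50. The lactate and pyruvate carrier SLC16A1 was not called in either line, at 0.38 and 0.24. The lysosomal sialic acid exporter SLC17A5 rose by 1.67 and 1.39.

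Some organic ion and metal carriers were far higher with the hairpins in OS-LM1. Of these, SLC47A1, SLC40A1 and SLC44A5 reached the count limit only through those libraries. The selection thus favoured their rise without fixing its size, and the rise is given by its values alone. The multidrug and toxin extruder SLC47A1, which secretes organic cations into the tubular lumen, was at 0.285, 0.265, 0.34 and 0.212 CPM with sgNTC18 in OS-LM1, at 30.1, 24, 27.7 and 31.5 with shPAX8-1 and at 27.4, 28.5, 27.8 and 29.4 with shPAX8-2. Within the 786-O derivative it did not pass 1.12 CPM in any library. The organic cation carrier SLC22A3 was at 14.5, 11.1, 15.7 and 11.4 CPM with sgNTC18, at 132, 146, 134 and 131 with shPAX8-1 and at 170, 159, 172 and 173 with shPAX8-2 in OS-LM1, and did not pass 0.22 CPM in the 786-O derivative. Ferroportin, SLC40A1, the known iron exporter of animal cells, was at 0.257, 0.0588, 0.113 and 0.0607 CPM with sgNTC18, at 13.4, 12.5, 15.7 and 13.8 with shPAX8-1 and at 11.3, 13.8, 11.3 and 13.3 with shPAX8-2 in OS-LM1, and did not pass 0.33 CPM in the 786-O derivative. In OS-LM1 all hairpin libraries were above all controls for these genes. SLC22A3, which reached the limit with either kind of construct in OS-LM1 though not in the 786-O derivative, rose by 3.53 ± 0.10 on the log2 scale. SLC44A5, a choline carrier relative, was at no more than 0.212 CPM with sgNTC18 and at 5.17 to 11.9 CPM with the hairpins in OS-LM1, and had a single CPM value above 0, of 0.0467, among the 786-O derivative libraries.

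Metal carriers had 9 higher (40.9%, beside 27% of all genes) and 2 lower (9.09%, beside 25.9%) of 22 tested in the 786-O derivative. For OS-LM1, 7 were higher (30.4%, beside 24.2%), SLC40A1 among them, and 4 lower (17.4%, beside 26.4%) of 23. The copper importer SLC31A1 rose by 1.13 in the 786-O derivative. Its OS-LM1 value was 0.60, and that call ended with shPAX8-1 alone (0.38), with the GC trend removed (0.40), and without sgNTC18 replicate 2 (0.55) or shPAX8-1 replicate 2 or 3 (0.57 each). Its relative SLC31A2 was at 0.62 and 0.72, of which the first was not called with a looser filter on low counts (0.56) and the second with shPAX8-2 alone (0.55). The zinc exporter SLC30A1 rose by 1.54 ± 0.11 in OS-LM1, from 22.4 to 30.4 CPM to 55.8 to 114 CPM. Within the 786-O derivative it rose by 1.14 ± 0.17, but its value with shPAX8-2 alone was 0.40 and not called. The zinc importers SLC39A1 and SLC39A3 fell, by 0.84 and 0.90 in the 786-O derivative and by 0.63 and 1.19 in OS-LM1, and SLC39A1 was not called in either line with the GC trend removed (-0.50 and -0.25) or with shPAX8-2 alone (-0.41 and -0.33), nor in OS-LM1 without sgNTC18 replicate 1 (-0.55). SLC39A3 was at -0.54 in the 786-O derivative with the GC trend removed and was not called. The divalent metal carrier SLC11A2 rose by 0.83 in the 786-O derivative and was at 0.54 in OS-LM1, and SLC39A14 was not called in either, at 0.16 and 0.41.

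Among inorganic ion carriers, 5 were higher (20.8%, beside 27% of all genes) and 6 lower (25%, beside 25.9%) of 24 in the 786-O derivative. For OS-LM1, 4 were higher (15.4%, beside 24.2%) and 7 lower (26.9%, beside 26.4%) of 26. The sodium bicarbonate carrier SLC4A7 was at 30.3, 21.4, 22.2 and 24.7 CPM with sgNTC18 in the 786-O derivative, at 113, 113, 185 and 170 with shPAX8-1 and at 78.6, 75.2, 94.8 and 69 with shPAX8-2. In OS-LM1 it was at 36.6 to 46.3 CPM with sgNTC18 and 38.5 to 55 with the hairpins, so that it rose clear of the controls only in the 786-O derivative, and the difference of -2.0 ± 0.18 passed the test (adjusted p = 5.8e-10, edgeR). The anion exchanger SLC4A2 fell by 2.20 ± 0.16 in the 786-O derivative, from a mean of 309 CPM to 50.4 and 84.1. Its OS-LM1 value was -0.60, and that call ended with the GC trend removed, with shPAX8-2 alone, and without sgNTC18 replicate 1 (-0.54), shPAX8-2 replicate 2 (-0.54) or shPAX8-2 replicate 4 (-0.57). SLC12A9, of the cation chloride carrier family, fell by 1.54 and 1.16.

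In the smaller classes, the fatty acid carrier SLC27A4 fell by 2.84 ± 0.17 in the 786-O derivative and by 1.29 ± 0.11 in OS-LM1. The choline carrier SLC44A1 rose by 0.81 ± 0.13 and 1.77 ± 0.09, the first of which was 0.51 and not called with the GC trend removed. The thiamine carrier SLC19A2 rose by 1.98 ± 0.13 and 1.26 ± 0.08, and its folate-carrying relative SLC19A1 fell by 1.12 and 1.60. SLC46A3, a lysosomal carrier, was at 3.36, 2.61, 3.26 and 2.37 CPM with sgNTC18 in the 786-O derivative and at 5.99 to 14.2 with the hairpins, and at 17.1, 14.3, 16.6 and 14.5 CPM and 99.1 to 130 in OS-LM1. It did not overlap in either line, and rose by 1.73 ± 0.15 and 2.86 ± 0.09 on the log2 scale (adjusted p of 8.5e-08 and 1.9e-15, edgeR). The multivitamin carrier SLC5A6 fell by 1.19 in OS-LM1 and by 0.61 in the 786-O derivative, where the call ended without the sgNTC18 replicate 2 library (-0.56) or without the shPAX8-1 replicate 3 or 4 library (-0.57 each), without both of these (-0.51), with shPAX8-2 alone (-0.26) or with the GC trend removed (-0.31). Across vitamins and nucleosides, 3 were higher (27.3%, beside 27% of all genes) and 3 lower (27.3%, beside 25.9%) of 11 in the 786-O derivative. For OS-LM1, 3 were higher (25%, beside 24.2%) and 5 lower (41.7%, beside 26.4%) of 12. The lower members of both lines include SLC23A1, selected through the sgNTC18 libraries. For nucleotide sugars the counts in the 786-O derivative were 3 (21.4%) and 5 (35.7%) of 14, and in OS-LM1 5 (35.7%) and 2 (14.3%) of 14, beside the same shares.

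**Figure D3:**
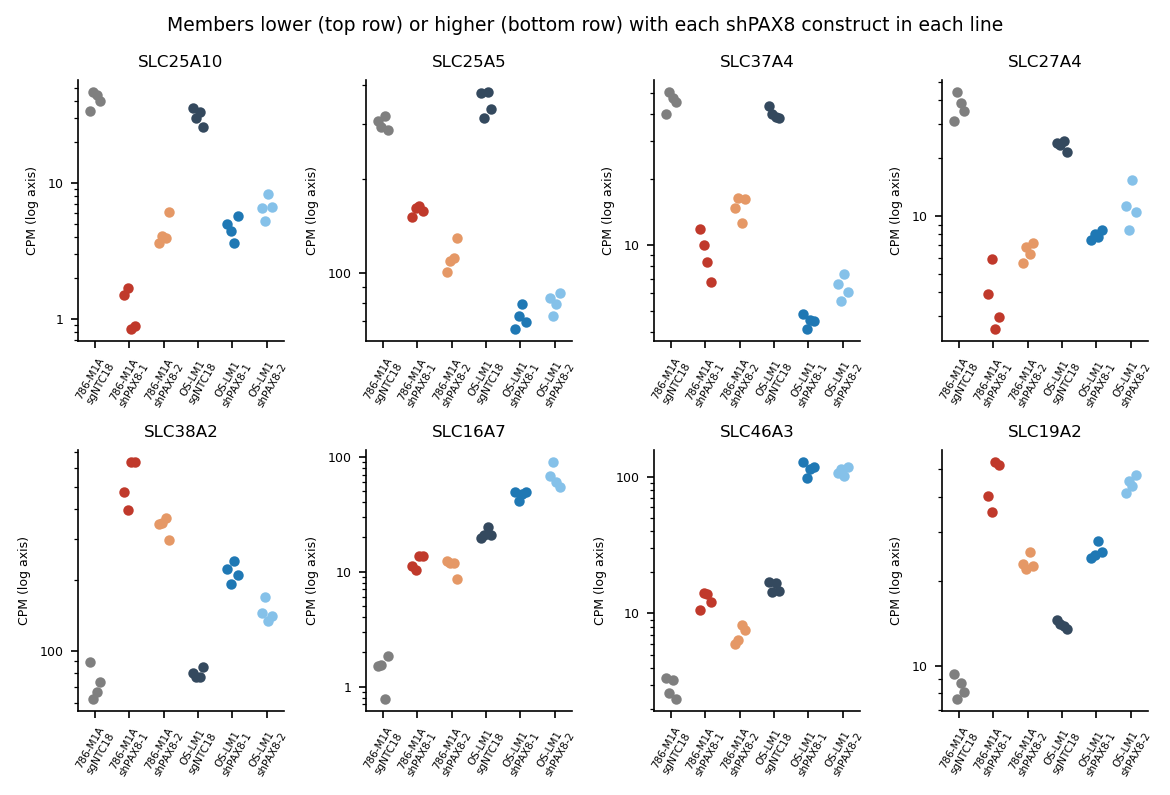
CPM in each library (vertical, log axis) of 4 members lower and 4 higher with each hairpin in each line, by line and construct (horizontal); each point is 1 library. For SLC25A10 the controls lie at 25.7 CPM or above and the hairpin libraries at 8.3 CPM or below; for SLC38A2 the controls lie at 89.1 CPM or below and the hairpin libraries at 134 CPM or above.

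The promoters of SLC38A2 and SLC46A3 are shown as examples, picked after their values were seen, of members that rose in both lines with each hairpin. The sequences are the 250 bases before the annotated start (RefSeq, GRCh38.p14), on the strand of the gene. Capitals mark the CCAAT box (CCAAT), searched on both strands. The SLC38A2 window is chr12:46372774-46373023 on the minus strand and that of SLC46A3 chr13:28718971-28719220 on the minus strand.

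SLC38A2: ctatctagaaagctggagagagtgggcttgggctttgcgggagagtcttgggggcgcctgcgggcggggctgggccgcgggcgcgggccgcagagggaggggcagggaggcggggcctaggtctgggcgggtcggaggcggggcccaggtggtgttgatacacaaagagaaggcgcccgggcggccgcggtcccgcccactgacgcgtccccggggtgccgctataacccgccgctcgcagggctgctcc

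SLC46A3: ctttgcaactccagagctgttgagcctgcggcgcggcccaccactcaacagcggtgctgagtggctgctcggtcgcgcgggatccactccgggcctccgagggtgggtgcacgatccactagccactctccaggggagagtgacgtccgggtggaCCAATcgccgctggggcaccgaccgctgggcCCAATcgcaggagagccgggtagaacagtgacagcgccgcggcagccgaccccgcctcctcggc

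The SLC46A3 window held the CCAAT box 2 times and the SLC38A2 window did not hold it. Over the 168 members with a promoter in the RefSeq table, 94 held the core of the hypoxia response element on either strand (ACGTG or GCGTG; 56%, beside 42.6% of all 27305 promoters), and 56 held a CCAAT box (33.3%, beside 32.9%). A core of the PAX paired-domain motif (GTCACGC or GTCATGC, the first of which contains the reverse complement of GCGTG) was in 7 member windows (4.17%, beside 3.64%). The members were selected on expression, whereas the set of all promoters was not, and base composition was not matched. The differences in share were not tested. These are matches of letters in a window and not sites.

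The tubular lists held 61 carriers. Of the 30 luminal carriers of the proximal tubule, 8 were members, and of the 15 on its blood side, 6 were. The sodium-glucose carriers SLC5A1 and SLC5A2 had mean counts per library of 0.8 and 4.4, the phosphate carrier SLC34A1 3.4, the urate exchanger SLC22A12 0.1, and the organic anion carriers SLC22A6 and SLC22A8 had 0 counts in every library. Of the thick limb and distal list 2 of 5 were members, of the collecting duct list 3 of 8 and of the medullary osmolyte list 2 of 3.

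Among the 8 luminal members, 2 of 6 tested were lower in the 786-O derivative (33.3%, beside 25.9% of all genes) and none higher. In OS-LM1, 4 of 8 were lower (50%, beside 26.4%) and 1, SLC47A1, was higher (12.5%, beside 24.2%). SLC23A1, selected through the sgNTC18 libraries, is counted as lower in both lines, and SLC47A1 was selected through the hairpin libraries. These few members therefore give no measure of the list apart from the selection. The cystine and dibasic amino acid subunit SLC3A1 was at 39.3, 35.6, 36.9 and 34.7 CPM with sgNTC18 in OS-LM1, at 7.1, 7.2, 6.7 and 7.5 with shPAX8-1 and at 10.1, 13.1, 12.2 and 13.9 with shPAX8-2. It was under 1 CPM in every 786-O derivative library. The groups of OS-LM1 did not overlap and SLC3A1 fell by 1.96 ± 0.08 there (adjusted p = 1.1e-13, edgeR). The vitamin C carrier SLC23A1, selected through the sgNTC18 libraries of OS-LM1, was there at 8.26 to 9.85 CPM with sgNTC18 and 1.06 to 1.53 with the hairpins. Within the 786-O derivative it was under 1 CPM in every library, and its call at -1.01 ended with shPAX8-2 alone or without the shPAX8-1 pair 1 and 2. The carnitine carrier SLC22A5 was at 0.04 in the 786-O derivative and at -0.59 in OS-LM1, and the OS-LM1 call ended without sgNTC18 replicate 1 (-0.53), shPAX8-1 replicate 1 (-0.55), or shPAX8-2 replicate 3 (-0.58) or 4 (-0.57), or with shPAX8-2 alone (-0.40). Its neighbour in the family, SLC22A4, fell by 1.52 in the 786-O derivative and was at -0.56 in OS-LM1, and the anion exchanger SLC26A6 was at 0.16 and -0.94.

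On the blood side, the bicarbonate exit carrier SLC4A4 was at -0.46 in the 786-O derivative and rose by 0.74 ± 0.09 in OS-LM1, from a mean of 88.1 CPM to 134 and 160, with a difference of 1.23 ± 0.15 (adjusted p = 1.1e-07, edgeR). The OS-LM1 call of SLC4A4 was lost with the GC trend removed, at 0.40. The glucose carrier SLC2A2, selected in the same way as SLC23A1, was at 10.6 to 12.7 CPM with sgNTC18 and 2.53 to 4.01 with the hairpins in OS-LM1, and the amino acid light chain SLC7A7 rose by 1.35 there. SLC43A2 fell by 1.68 in the 786-O derivative and was at 0.26 in OS-LM1. In the osmolyte list, the taurine carrier SLC6A6 was at 0.15 in the 786-O derivative and fell by 1.31 ± 0.07 in OS-LM1, a difference of -1.44 (adjusted p = 3.1e-09, edgeR), while the myo-inositol carrier SLC5A3 was called in neither. The sodium calcium exchanger SLC8A1 was at 0.36 in the 786-O derivative and fell by 0.72 in OS-LM1, and SLC4A8 of the collecting duct list rose by 1.08 and fell by 0.73. With shPAX8-1 alone the OS-LM1 values of SLC8A1 and SLC4A8 were -0.55 and -0.46 and were not called.

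To ask which effects differed between the lines, the difference of the hairpin effect (OS-LM1 minus the 786-O derivative) was tested on all 24 libraries. It was higher for 63 of the 207 members, against 23.9% of all genes, and lower for 48, against 23.7%. Members whose 2 lines moved in opposite directions, each called, were SLC1A5, SLC22A15 and SLC4A8 (higher in the 786-O derivative) and SLC22A23 and SLC2A5 (higher in OS-LM1). The OS-LM1 calls of SLC22A15 and SLC4A8 ended with shPAX8-1 alone, at -0.55 and -0.46. For SLC22A15 the 786-O derivative value of 0.62 became -0.08 with shPAX8-2 alone, and was 0.50 without the shPAX8-1 pair 3 and 4, 0.58 without sgNTC18 replicate 1 and 0.39 with the GC trend removed, none of them called. SLC22A23, an orphan of the organic ion family, was at 9.15 to 11.2 CPM with sgNTC18 and 4.18 to 8.01 with the hairpins in the 786-O derivative, and at 11.1 to 13.6 and 21.3 to 32.8 CPM in OS-LM1. Its groups did not overlap in either line, and the difference was 1.84 (adjusted p = 4.2e-09, edgeR), although the 786-O derivative value of -0.77 became -0.44 with the GC trend removed. SLC9A3R1, the scaffold, was at 0.19 in the 786-O derivative and rose by 1.1 ± 0.09 in OS-LM1. SLC3A2, SLC7A5, SLC7A11 and SLC2A1 were not called for the difference, at -0.36 ± 0.14, 0.14 ± 0.21, -0.10 ± 0.21 and -0.10 ± 0.14.

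The lines were then compared directly. With sgNTC18, 57 members were higher in OS-LM1, against 23.1% of all genes, and 57 were lower, against 23.2%. With the hairpins 75 were higher, against 31.9%, and 67 were lower, against 32.7%. The member shares were above or close to these rates, and members that reached the count limit in 1 line alone are among them. Without those, 44 were higher and 48 lower with sgNTC18, and 58 higher and 59 lower with the hairpins. The single genes named next, from SLC17A9 to SLC24A2, all reached the limit in 1 line alone. The selection thus favoured their difference without fixing its size, and their values are a description. The vesicular nucleotide carrier SLC17A9 was at 182, 287, 226 and 204 CPM in the 786-O derivative with sgNTC18 and had 0 counts in all 12 OS-LM1 libraries. Against a floor of 3 counts over the group, its CPM was at least 10100-fold higher in the 786-O derivative with sgNTC18, and at least 3540-fold and 7460-fold higher with shPAX8-1 and shPAX8-2. The opposite held for the monocarboxylate carrier family member SLC16A9, with 35.9, 34.5, 40.8 and 38.1 CPM in OS-LM1 sgNTC18 and 0 counts in the 4 libraries of the 786-O derivative with sgNTC18, so that it was at least 1190-fold higher in OS-LM1.

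SLC9B2, a sodium proton exchanger of organelles and plasma membrane, was at 10.3, 9.47, 11.9 and 9.41 CPM in OS-LM1 sgNTC18 and had 0 counts in every 786-O derivative library, a ratio of at least 328-fold. SLC2A2 had 2 counts over the 786-O derivative with sgNTC18 and 1572 over OS-LM1 sgNTC18, a ratio of 548 (95% counting interval 152 to 4530, exact). The dicarboxylate carrier SLC13A3 had a mean of 18.3 CPM in the 786-O derivative with sgNTC18 and at most 0.104 CPM in any OS-LM1 library. It rose in the 786-O derivative with the hairpins by 1.1, to means of 33 and 43.6 CPM. The glucose carrier SLC2A10 was at a mean of 43.6 CPM in the 786-O derivative with sgNTC18 and 0.159 in OS-LM1, and the sodium calcium potassium exchanger SLC24A2 at 0.136 and 22.8 CPM. Intervals and floors cover counting error only.

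Among members expressed in both lines, SLC7A5 was lower in OS-LM1 by 1.16 ± 0.17 with sgNTC18 and SLC2A3 by 1.99 ± 0.11, while SLC7A11 was higher by 1.49 ± 0.18, SLC30A1 by 1.92 ± 0.17 and SLC16A7 by 3.93 ± 0.20. The difference for SLC2A1 was -0.53 ± 0.11, under the fold limit. SLC12A8 was at a mean of 57.1 CPM in the 786-O derivative and 7.39 in OS-LM1, and SLC52A2, a riboflavin carrier, at 136 and 29.8 CPM. By class, members that reached the limit in 1 line alone are counted too. Of 19 sugar members, 4 were higher (21.1%) and 9 lower (47.4%) in OS-LM1 with sgNTC18, beside 23.1% and 23.2% of all genes. SLC2A10, SLC37A2 and SLC45A1, at the limit in the 786-O derivative alone, are among those lower. Of 37 mitochondrial members, 6 were higher (16.2%) and 7 lower (18.9%). Of 8 luminal proximal tubule members, 5 were higher and 2 lower, and SLC3A1, SLC23A1 and SLC47A1 of that list reached the limit in OS-LM1 alone.

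**Figure D4:**
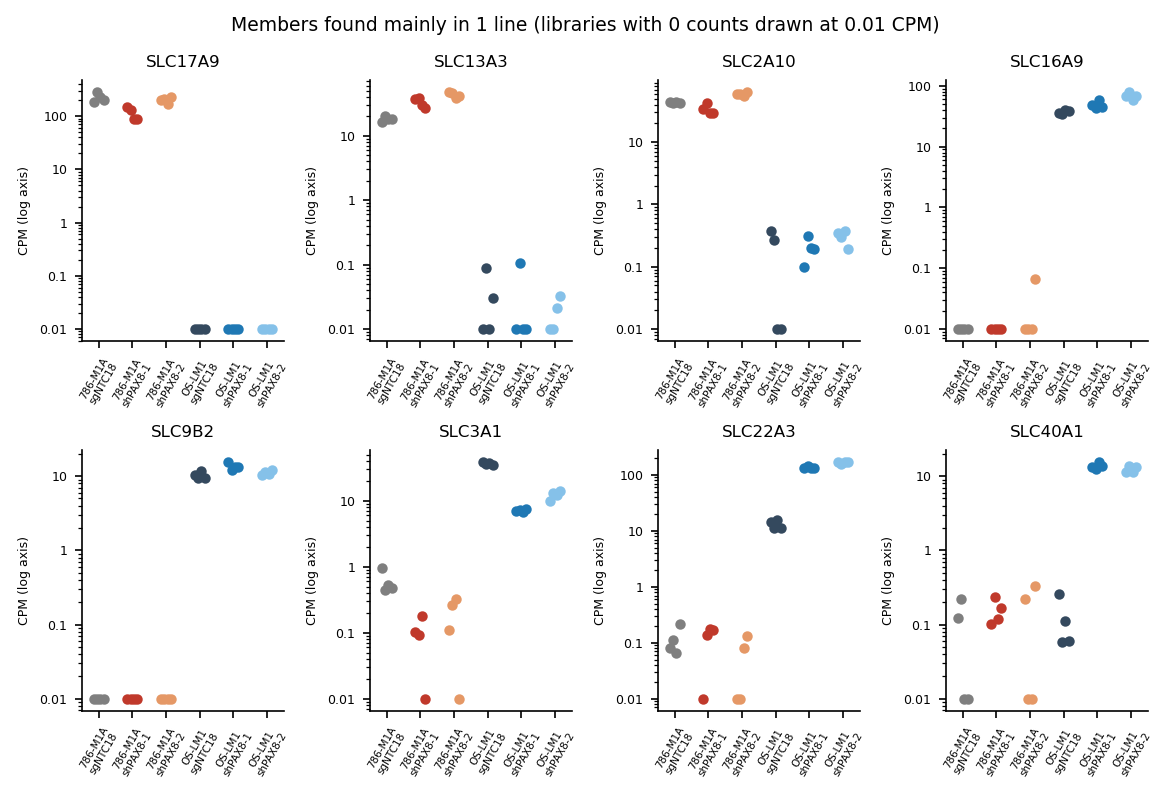
CPM in each library (vertical, log axis, with 0 counts drawn at 0.01) of 8 members found mainly in 1 line, by line and construct (horizontal). SLC17A9 is at 0 in every OS-LM1 library and SLC9B2 at 0 in every 786-O derivative library, and SLC40A1 passes 0.33 CPM only in the OS-LM1 hairpin libraries.

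To see how far the effect depended on the hairpin, shPAX8-1 was compared with shPAX8-2 in each line. PAX8 itself was 1.18 ± 0.15 lower with shPAX8-1 in the 786-O derivative on the log2 scale and did not pass the test in OS-LM1 (-0.05 ± 0.12). For the 786-O derivative, 28 of 197 members were higher with shPAX8-1, against 14.8% of all genes, and 43 were lower, against 15.2%. Without the shPAX8-1 pair 3 and 4 these counts were 9 and 24, without shPAX8-1 replicate 4 alone 17 were higher, and without pair 1 and 2 they were 36 and 62. The fold changes of this comparison followed GC content over all genes more than any other, with a Spearman correlation across genes of -0.557, and with that trend removed 22 members were higher and 24 lower. In OS-LM1, 9 of 203 members were higher, against 6.76%, and 21 were lower, against 6.38%.

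For the 786-O derivative the largest positive difference among the members was that of SLC7A11, which was at 16.6, 12.3, 14.8 and 14.1 CPM with sgNTC18, at 54.6, 40.5, 84.7 and 83.9 with shPAX8-1 and at 18.4, 16, 16.2 and 14.3 with shPAX8-2. The shPAX8-2 libraries thus lay among or next to the controls. The difference was 2.01 ± 0.21 (adjusted p = 7.2e-06, edgeR). SLC30A1 and SLC22A15 had the same form, at 1.47 ± 0.19 and 1.40 ± 0.14. In the other direction, SLC25A10 was lower with shPAX8-1 than with shPAX8-2 at -1.83 ± 0.24, and the lactate exporter SLC16A3 was at 170, 245, 214 and 184 CPM with sgNTC18, at 73.7, 71.3, 38.6 and 40.4 with shPAX8-1 and at 140, 162, 115 and 167 with shPAX8-2, a difference of -1.39 ± 0.21 (adjusted p = 1.6e-04, edgeR). SLC2A1 was at 735 to 1130 CPM with shPAX8-1 and 1660 to 2100 with shPAX8-2, on either side of 1310 to 1500 with sgNTC18, and differed by -1.12 ± 0.13. SLC43A3 was at 109 to 152 CPM with shPAX8-1 and 294 to 298 with shPAX8-2, beside 248 to 269 with sgNTC18. In SLC7A11, SLC30A1 and SLC16A3 the shPAX8-1 pair 3 and 4 lay farther from sgNTC18 than pair 1 and 2.

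Among the members that differed between hairpins in OS-LM1, SLC44A2 was at a mean of 79.5 CPM with shPAX8-1 and 198 with shPAX8-2, on either side of 116 with sgNTC18, a difference of -1.35 ± 0.09 (adjusted p = 3.7e-09, edgeR). For the 786-O derivative it differed by -1.0 ± 0.11 in the same direction. SLC37A3 was at 37.7 and 83.3 CPM beside 43.3, and the dibasic amino acid carrier light chain SLC7A6 at 56.7 and 116 CPM beside 86. SLC2A1-AS1 was at a mean of 5.03 against 2.39 CPM. SLC7A11 differed by 0.34 in OS-LM1 and SLC16A3 by -0.33, neither of them called.

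**Figure D5:**
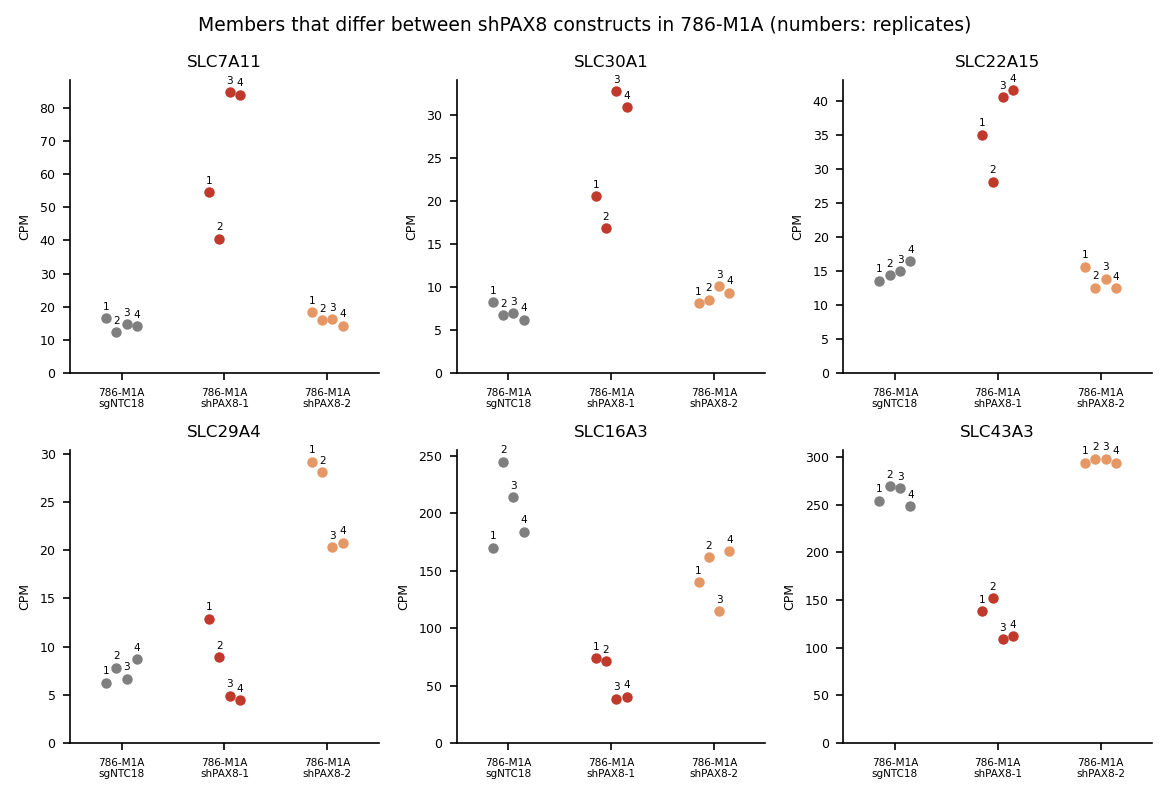
CPM in each 786-O derivative library (vertical, from 0) of 6 members that differ between the hairpins, by construct (horizontal), with replicate numbers beside the points. For SLC7A11 the shPAX8-2 libraries lie at 14.3 to 18.4 CPM beside 12.3 to 16.6 with sgNTC18, and the shPAX8-1 libraries at 40.5 to 84.7.

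Carriers and partners outside the name pattern, 44 genes chosen with earlier results known, were described beside the members. Of 33 tested in the 786-O derivative, 4 were higher and 11 lower, and of 34 in OS-LM1, 6 were higher and 11 lower, beside the shares of all genes of 27% and 25.9% and of 24.2% and 26.4%. Of the 12 mitochondrial genes among them, 1 was higher and 7 lower in the 786-O derivative, and 4 of 11 were lower and none higher in OS-LM1 (edgeR's quasi-likelihood test), with values from -3.01 to 0.65 and from -1.81 to 0.31. Of the 2 tested partners of the monocarboxylate carriers, 1 was lower in the 786-O derivative, and 1 was lower and 1 higher in OS-LM1.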

How the data were processed

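Gene-level expected counts and TPM were deposited by the authors, who per the labels aligned reads with Bowtie2 and quantified them with RSEM on hg38; versions and the strand setting of the counting are not given in the sources used here. The authors made the deposited TPM by scaling expected counts to transcript length and library total. Expected counts were rounded and fitted with edgeR 4.0.16 (R 4.3.3, limma 3.58.1) after filterByExpr and TMM scaling, using robust quasi-likelihood fits, and p-values were adjusted by Benjamini-Hochberg over all genes tested. Within-line comparisons used the 12 libraries of a line, and comparisons of lines used all 24. CPM are on TMM-scaled library sizes. Library totals had a median of 20511915 expected counts, and no 2 replicates agreed within sampling noise. The fitting step was tested on simulated data. Coordinates and promoters are from RefSeq, GRCh38.p14, with 206 of the 207 members matched to coordinates.

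Members, transport classes, tubular lists and alternatives were chosen with earlier results of these data known. Named genes were the 5 called members with the largest change in each direction of a comparison, the 2 highest by TPM in each class, tubular members and a list of well-known carriers, and the remaining named genes were chosen after their values were seen. Replicate numbers were checked for pairing by the correlation of deviations from group means. In the 786-O derivative, shPAX8-1 and shPAX8-2 libraries of the same number correlated at a mean of 0.431 (0.105 to 0.727). Libraries of unlike number in these 2 groups had a mean of -0.147 but ran from -0.814 to 0.74. For same-numbered libraries of the other pairs of groups, the mean ran from -0.179 to 0.034. The errors and p-values given above are from fits without a block, and pairing entered only as an alternative. Alternatives were other scaling, filters and fold limits, DESeq2 1.42.0, removal of the GC trend, 1 hairpin at a time, a replicate block and leaving out libraries. Leaving out the pairs of the 786-O derivative with shPAX8-1, and counting only members at the count limit in both lines or with both kinds of construct, were chosen after seeing the data. Some genes and sequences are not reported here.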

Additional observations from a re-analysis of the deposited data

Results flagged for a closer look

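Of 250 sets of 4 libraries checked over 50 genes, 10 held a library far from the other 3, where chance flags about 1 in 20 groups, or 12.5 here. SLC12A8 was at 50.1 CPM in the 786-O derivative with sgNTC18 replicate 1, below the others, and at 13.5 CPM in OS-LM1 shPAX8-2 replicate 3, above them. In OS-LM1 shPAX8-1, replicate 1 was high for SLC15A3 at 4.11 CPM and for SLC24A2 at 22.5 CPM, and replicate 3 was high for SLC4A7 at 46.2 CPM. In OS-LM1 shPAX8-2, replicate 4 was high for SLC2A1-AS1 at 3.05 CPM and low for SLC2A3 at 15 CPM. In OS-LM1 sgNTC18, replicate 1 was high for SLC16A3 at 198 CPM, replicate 2 was high for SLC7A6 at 92.6 CPM and replicate 4 was low for SLC44A2 at 100 CPM.

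The effect of the hairpins differed between the lines for these members by edgeR's test of the difference (OS-LM1 minus the 786-O derivative, log2 scale). The differences were 5.70 for SLC40A1, 4.46 for SLC47A1, 4.10 for SLC22A3, 3.87 for SLC2A6 and 2.98 for SLC2A5. They were -2.0 for SLC4A7, -1.79 for SLC35F3, -1.79 for SLC23A1, -1.77 for SLC1A5 and -1.77 for SLC4A8. SLC40A1 and SLC47A1 reached the count limit through the hairpin libraries alone, and SLC35F3 and SLC23A1 through the sgNTC18 libraries alone. Their differences are therefore a description and not a test. SLC22A3 and SLC2A5 reached the limit in OS-LM1 alone. In the 786-O derivative SLC40A1 did not pass 0.33 CPM and SLC22A3 did not pass 0.22 CPM, so the effect subtracted for them is near the floor.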

How the results depend on the processing

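Of 373 named values, 278 kept their direction and call in every alternative fit, and 2 reversed with shPAX8-2 alone, SLC22A15 in the 786-O derivative at -0.08 and the difference between lines for SLC19A2 at 0.19. Other fold limits were applied to the counts of members and not to the named values. Of the 14 counts of members higher or lower in a comparison, 3 stayed within 1.5 times their main value in every alternative. The shares of all genes under the alternative fits and limits, here and above, were not computed. The counts that follow are not a full list and describe the members only. With a fold limit of 1 on the log2 scale, 32 members were lower in the 786-O derivative, 28 were higher and 28 lower in OS-LM1, 37 higher and 36 lower between lines with sgNTC18, 4 higher and 10 lower between hairpins in the 786-O derivative, 1 and 3 in OS-LM1, and 38 higher and 26 lower for the difference between lines. By adjusted p alone, 88 were higher in OS-LM1, and 20 were higher and 69 lower between its hairpins (edgeR). Between hairpins in the 786-O derivative, 24 were lower with the GC trend removed, and 9 were higher and 24 lower without the shPAX8-1 pair 3 and 4. Leaving out 1 library at a time, that comparison ran from 17 to 29 higher, the lowest without shPAX8-1 replicate 4, and from 38 to 55 lower. With a replicate block, 27 members were higher and 43 lower between the hairpins of the 786-O derivative. The block ended 1 named call, the difference between lines for SLC52A3 at 1.90. The cause of these shifts was not tested. Depth limits the members near 0 in 1 line, whose fitted differences have wide errors. Construct type and depletion cannot be told apart.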
